A study of Mus musculus with 20 samples.

Results

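The mitochondrial solute carriers of the Slc25 family were described in RNA of the mouse left ventricle. They were chosen by name and level, as the rows whose symbol begins with Slc25a, less the 6 carriers of citrate, 2-oxoglutarate, aspartate and glutamate, peroxisomal cofactors and acylcarnitine (Slc25a1, Slc25a11, Slc25a12, Slc25a13, Slc25a17 and Slc25a20), with at least 0.5 FPKM, a level scaled to transcript length and library size, in at least 5 of the 20 libraries. Of 46 such symbols among the 25052 genes of the deposited tables, 6 were left out by name, 7 fell below the minimum and 33 were kept. The choice used levels over all libraries and no difference between groups.

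Poly(A) RNA came from 20 male mice in 4 groups of 5. All mice carried floxed alleles of Acacb. This gene encodes ACC2, an enzyme of the outer mitochondrial membrane that makes malonyl-CoA, which holds back the import of fatty acids. The iKO mice also carried MerCreMer, a tamoxifen-inducible Cre recombinase whose promoter the labels do not name, and their littermates without it bear the label WT. At an age of 8 weeks both genotypes were given tamoxifen over 5 days at 20 mg/kg, and 4 weeks later they were placed for 16 weeks on chow or on the high-fat diet D12492 (HFD). The groups were therefore chow-fed WT, chow-fed iKO, HFD-fed WT and HFD-fed iKO. No group with MerCreMer and without floxed alleles was analysed here, so loss of ACC2 and presence of the transgene cannot be told apart.

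Slc25 proteins form the largest family of transporters in the inner mitochondrial membrane. Most of them exchange one metabolite or cofactor for another across a membrane that is otherwise closed to charged solutes, and a heart cell depends on them to send ATP out to the myofibrils and to bring ADP, phosphate, amino acids, coenzyme A, NAD and glutathione in. A few members have no established substrate, and Slc25a46 has moved to the outer membrane, where it takes part in mitochondrial shape.

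Acacb, the check of the genotype labels, stood at 37.42 to 41.07 FPKM in chow-fed WT and 8.37 to 9.46 in chow-fed iKO, and at 34.9 to 41.92 in HFD-fed WT and 9.05 to 11.92 in HFD-fed iKO, so no library went against its genotype label. Its ranges on the 2 diets overlap in each genotype, so it does not check the diet labels. The 8 cardiomyocyte markers (Myh6, Actc1, Tnnt2, Tnni3, Myl2, Ryr2, Pln and Mb) were measured in every library and summed to between 30801 and 42273 FPKM. The 5 markers of white adipocytes summed to at most 3.89 FPKM, and Ucp1, which defines brown fat, is not listed. The other 2 brown adipocyte markers were measured, Cidea at 15.37 to 26.45 FPKM and Ppargc1a at 19.42 to 74.31 FPKM over the libraries. The 4 atrial markers summed highest in WT chow library RT1 (691.4 FPKM) and iKO chow library RT4 (358.3). The chow mice gave libraries RT1 to RT10 and the HFD mice RT11 to RT20, so diet and the run of library numbers cannot be told apart.

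A small number of carriers made up most of the family's RNA. Slc25a4, the ADP/ATP carrier of heart and muscle (ANT1, chromosome 8, 46206797 to 46211284 on GRCm38), averaged 1922 FPKM over the 20 libraries and made up 55.65% of the summed FPKM of the 33 carriers. Slc25a3, the phosphate carrier that supplies ATP synthase (chromosome 10, 91116574 to 91124059), averaged 1020 FPKM and made up 29.54%. Slc25a5, the ADP/ATP carrier of most other tissues (ANT2, X chromosome, 36795651 to 36798807), followed at 188.1 FPKM. The fourth was Slc25a34, a carrier of no established substrate (chromosome 4, 141618824 to 141623821), at 67.33 FPKM, and the fifth Slc25a39, which is needed for glutathione import (chromosome 11, 102402985 to 102407946), at 52.47 FPKM. FPKM is a level per transcript length, so these levels can be set side by side between genes.

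The next carriers were those of cofactors, nucleotides and glutamate. Slc25a42 (coenzyme A) averaged 21.58 FPKM, Slc25a46 18.33, Slc25a51 (NAD) 17.57, Slc25a23 (ATP-Mg and phosphate) 15.7 and Slc25a22 (glutamate) 14.67. Over the libraries, the range of each of these 5 overlapped that of the next. Slc25a33 and Slc25a36 (pyrimidine nucleotides), Slc25a16, Slc25a26 (S-adenosylmethionine), Slc25a38 (glycine) and Slc25a28 (mitoferrin-2, iron) lay between 8.2 and 11.2 FPKM. Slc25a44 (branched-chain amino acids), Slc25a10 (dicarboxylates), Slc25a15 (ornithine), Slc25a29 (basic amino acids), Slc25a40 (the relative of Slc25a39), Slc25a32 (folate and FAD) and Slc25a30 lay between 3.026 and 5.191. The lowest 9 were Slc25a37 (mitoferrin-1) at 2.873, Slc25a25 at 2.599 and Slc25a24 at 2.276 (both ATP-Mg and phosphate), Slc25a35 at 2.074, Slc25a45 at 1.506, Slc25a47 at 1.367, Slc25a14 at 1.14, Slc25a27 at 0.737 and Slc25a53 at 0.6655. At the edge of the rule, Slc25a53 reached the minimum in 17 libraries and Slc25a31, the ADP/ATP carrier of germ cells, in 1, with a highest value of 0.52 FPKM. The other 6 below the minimum were Slc25a18, Slc25a41, Slc25a21, Slc25a43, Slc25a2 and Slc25a5-ps, and their highest value in any library was 0.27 FPKM.

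**Figure D1:**
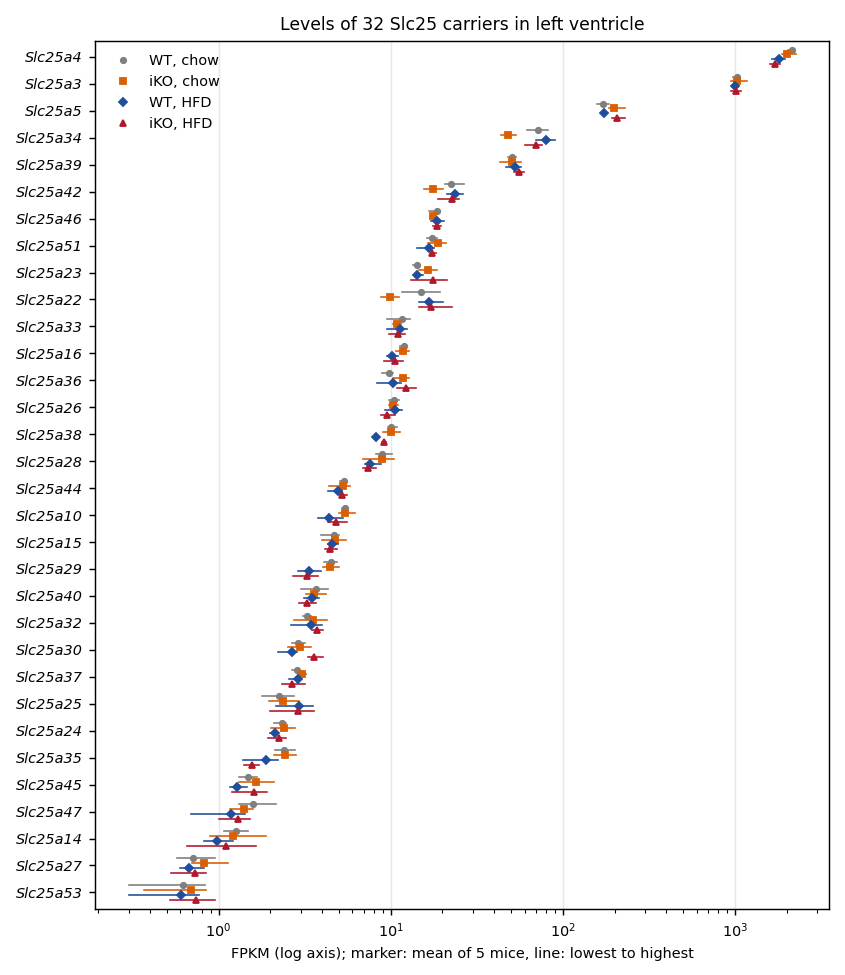
Level of 32 of the 33 carriers in FPKM on a log axis, with 1 marker per group at the mean of 5 mice and a line from the lowest to the highest mouse. Slc25a4 and Slc25a3 lie near or above 1000 FPKM in all 4 groups, and most lines of a carrier overlap across groups.

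Differences were tested with limma on log2(FPKM + 1), fitted to all 20 libraries and 12775 genes, and a gene was called at a Benjamini-Hochberg adjusted p under 0.05 over all of these genes. All 33 carriers were tested, since the rule that chose them also sets the minimum of the test. On chow, 2 carriers were called lower in iKO than in WT (Slc25a34 and Slc25a22) and 0 higher, where 0.72% of all tested genes were called lower and 0.344% higher. On HFD, limma called 0 carriers in either direction between the genotypes, where 0.102% of all genes were called higher and 0.0705% lower. There 8 carriers had an unadjusted limma p under 0.05, as had 1947 of all 12775 genes. Between diets in WT, 5 carriers were called lower on HFD (Slc25a4, Slc25a16, Slc25a38, Slc25a10 and Slc25a29) and 0 higher, against 7.27% and 0.767% of all genes. In iKO, 3 were called lower on HFD (Slc25a4, Slc25a29 and Slc25a35) and 3 higher (Slc25a34, Slc25a42 and Slc25a22), against 8.36% and 1.65% of all genes. For the interaction of genotype and diet, limma called 0 carriers, where 0.0313% of all genes were called higher and 0% lower. Its unadjusted limma p was under 0.05 for 4 carriers and for 480 of all 12775 genes.

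The median log2 fold change of the 33 carriers was -0.0035 for iKO against WT on chow (all genes 0.05), 0.05 on HFD (all genes 0.06), -0.04 for HFD against chow in WT (all genes -0.08) and -0.07 in iKO (all genes -0.07). Carriers whose 2 groups of libraries did not overlap at all were counted as well. On chow, iKO lay wholly above WT for 2 carriers and wholly below for 3, against 2.07% and 1.11% of all genes, and on HFD for 3 and 0, against 2.79% and 0.446%. HFD lay wholly above chow for 0 carriers and wholly below for 4 in WT, against 0.783% and 9.99% of all genes, and for 2 and 3 in iKO, against 1.39% and 6.41%. The 5 and 3 carriers called lower on HFD, of 33, stand against these shares of all genes, and nothing particular to the family is read from them.

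**Figure D2:**
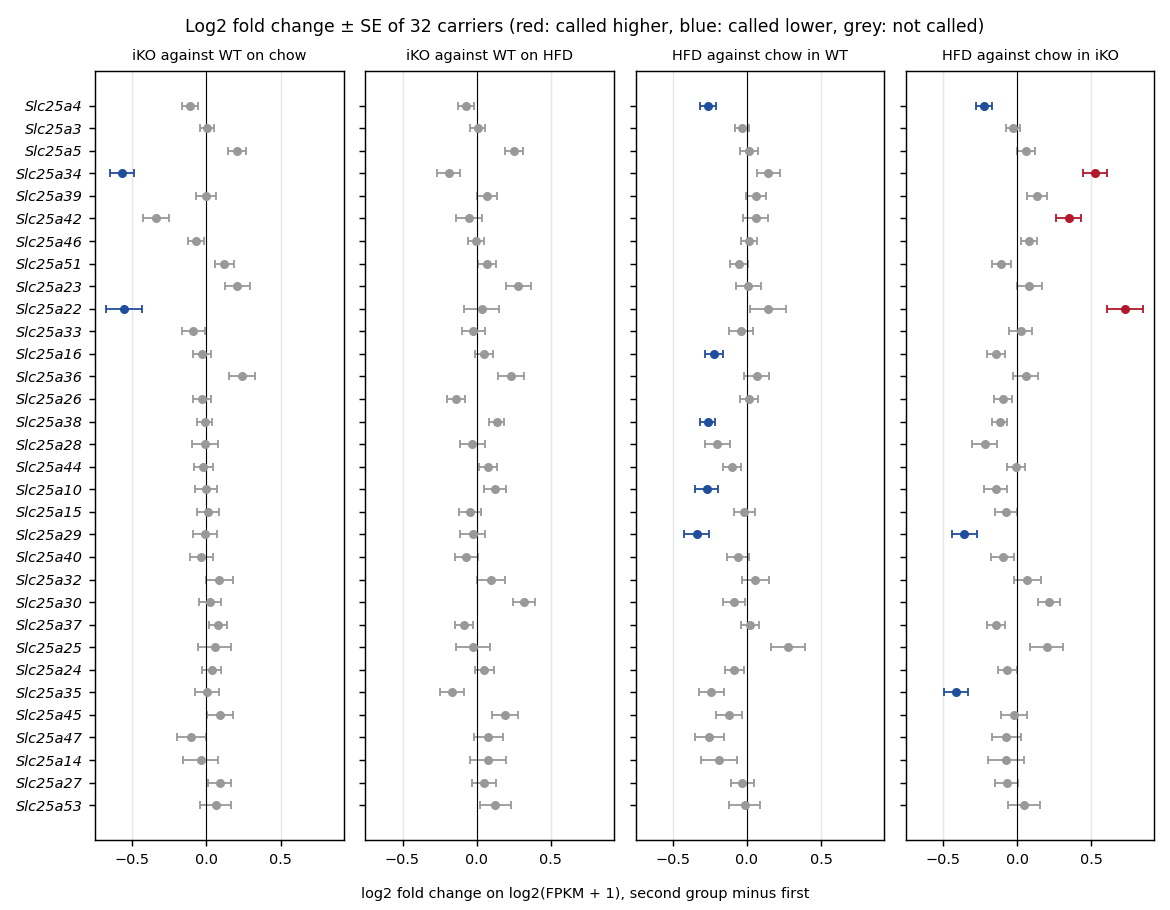
Log2 fold change with its SE for 32 of the 33 carriers in the 4 pairwise comparisons, in the order of their levels, with called carriers in red (higher) and blue (lower). Slc25a34 and Slc25a22 are called lower in chow-fed iKO, and they and Slc25a42 are called higher on HFD in iKO.

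Slc25a34, Slc25a22, the glutamate carrier that moves glutamate with a proton, and Slc25a42, the coenzyme A carrier, were at their lowest in chow-fed iKO. Slc25a34 in chow-fed iKO was 0.668 times and Slc25a22 0.654 times the WT mean. On HFD the genotypes overlapped for both. Slc25a42 had the same order of group means between WT and chow-fed iKO, with a smaller difference. These 3 were grouped after their values were seen.

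For Slc25a34, the 5 libraries read 70.2, 82.6, 75.3, 69.7 and 62.03 FPKM in chow-fed WT and 48.03, 44.04, 44.6, 53.5 and 50.1 in chow-fed iKO. On HFD they read 81.1, 72.1, 69.7, 90.7 and 84.8 in WT and 69.8, 60.2, 71.9, 70.9 and 75.4 in iKO. Every iKO chow library lay below every library of the other 3 groups. The mean was 71.95 ± 7.59 FPKM (SD, n = 5) in chow-fed WT and 48.1 ± 3.92 in chow-fed iKO (log2 fold change -0.57, SE 0.0794, adjusted p = 0.000194 by limma). On HFD it was 79.7 ± 8.76 in WT and 69.6 ± 5.66 in iKO, where the genotypes overlapped and the test was not passed (log2 fold change -0.19, SE 0.0794, adjusted p = 0.281). In iKO, Slc25a34 was higher on HFD than on chow, with a log2 fold change 0.53, SE 0.0794, adjusted p = 0.000197, while in WT the difference was 0.14 (adjusted p = 0.256). The effects of diet in the 2 genotypes were not shown to differ after adjustment, since the interaction of 0.38 (SE 0.112) had an unadjusted p of 0.00267 and an adjusted p of 0.656. The comparison on chow and that of diets in iKO share the 5 iKO chow libraries, so their opposite signs are not independent of each other.

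For Slc25a22 (chromosome 7, 141429744 to 141437892), chow-fed WT read 15.6, 19.4, 14.4, 11.7 and 14.2 FPKM and chow-fed iKO 10.7, 9.9, 8.77, 8.78 and 11.2. HFD-fed WT read 16.6, 14.6, 15.2, 20.3 and 16.5, and HFD-fed iKO 14.7, 14.7, 17.3, 16.3 and 22.7. As for Slc25a34, all 5 iKO chow libraries lay below all 15 others. The mean fell from 15.1 ± 2.81 to 9.86 ± 1.09 FPKM (SD, n = 5) in the chow groups (log2 fold change -0.55, SE 0.12, adjusted p = 0.0215 by limma). It was 16.6 ± 2.21 in HFD-fed WT and 17.1 ± 3.3 in HFD-fed iKO (log2 fold change 0.03, adjusted p = 0.91). In iKO it was higher on the HFD (log2 fold change 0.73, SE 0.12, adjusted p = 0.000559), and in WT the value was 0.14 (adjusted p = 0.47). The interaction was 0.59 (SE 0.170, unadjusted p = 0.00248, adjusted p = 0.656). The call on chow was near the threshold and was lost when any of the WT library RT3 (adjusted p = 0.0707) or the iKO libraries RT4 (0.0536), RT6 (0.0603) or RT7 (0.0682) was left out.

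For Slc25a42 (chromosome 8, 70184340 to 70212305), chow-fed WT read 21.03, 26.6, 20.7, 21.5 and 22.8 FPKM and chow-fed iKO 18.5, 15.5, 15.9, 20.2 and 17.9. HFD-fed WT read 25.99, 21.3, 21.99, 26.5 and 21.8 and HFD-fed iKO 23.6, 18.9, 22.98, 22.7 and 25.1. On chow the genotypes did not overlap, with means of 22.5 ± 2.4 and 17.6 ± 1.93 FPKM (SD, n = 5), but limma's adjusted p of 0.0538 missed the threshold (log2 fold change -0.34, SE 0.0847). It passed under both other scalings of the libraries (adjusted p = 0.022 with median-of-ratios factors and 0.0223 with upper-quartile factors), with a minimum of 1 FPKM (0.0494) and without library RT7 (0.0269). Under the other 17 of 21 alternatives it did not pass. Over all 21 the value lay between -0.41 and -0.28, with limma's adjusted p at most 0.172. In iKO, Slc25a42 was higher on HFD, at 22.6 ± 2.27 FPKM (log2 fold change 0.35, SE 0.0847, adjusted p = 0.0118), although library RT13 at 18.9 FPKM lay below the highest chow library. In WT the value was 0.06 (adjusted p = 0.687), and the interaction was 0.29 (unadjusted p = 0.025, adjusted p = 0.999).

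The 3 carriers also shared their highest library within groups, as was noticed after their values were seen. In 3 of the 4 groups 1 library was the highest for all 3, namely RT3 in chow-fed WT, RT18 in HFD-fed WT and RT20 in HFD-fed iKO. In chow-fed iKO RT7 was highest for Slc25a34 and Slc25a42, and RT9 for Slc25a22. The pattern was not particular to the 3 carriers, since Acacb was also highest in RT3, RT18 and RT20 of these groups. Each of these libraries was the highest of its group for other carriers too. RT3 was so for Slc25a51 and Slc25a28, RT18 for Slc25a39 and Slc25a33, and RT20 for Slc25a4, Slc25a39 and Slc25a23, among others. The summed cardiomyocyte markers, 8 of 8 measured with none at 0, ranged from 37996 to 39196 FPKM in chow-fed WT and from 37678 to 42273 in chow-fed iKO, highest in RT7. Fibroblast, macrophage and erythroid markers leaned higher in the same comparison, although limma called none of them. Endothelial markers and those of smooth muscle and pericytes did not, with medians of 0.01 and 0.03 and 4 of 6 above 0 in each list. On chow the log2 fold change was above 0 for 8 of 8 fibroblast markers (median 0.35, 2 with an unadjusted p under 0.05), 6 of 6 macrophage markers (median 0.19, 0 under 0.05) and 5 of 5 tested erythroid markers (median 0.37, 2 under 0.05), beside a median of 0.01 for the cardiomyocyte markers and 0.05 for all genes. Of all 12775 genes tested, 9041 lay above 0 and 1723 had an unadjusted limma p under 0.05, so these counts of signs stand on a high background. The macrophage markers summed to 47.8 to 52.6 FPKM in chow-fed WT and 48.5 to 73.2 in chow-fed iKO, and the erythroid markers, 6 of 6 measured, to 1605 to 2515 and 2062 to 3061. The summed ranges of the 2 groups overlap for each of these lists and for the fibroblast markers, whose sums stand beside Slc25a5 below. The part of any of them in the lower values of the 3 carriers was not tested. In bulk tissue, fewer cells of a type and less RNA per cell cannot be told apart.

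**Figure D3:**
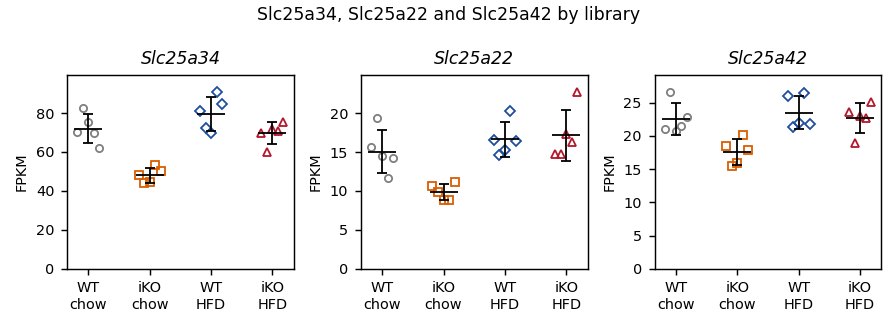
FPKM of Slc25a34, Slc25a22 and Slc25a42 in each of the 20 libraries, with the mean and SD of each group of 5. All 5 iKO chow points of Slc25a34 (44.04 to 53.47 FPKM) and of Slc25a22 (8.77 to 11.18) lie below every point of the other groups.

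The sequence upstream of these genes is shown because all 3 were called higher on HFD in iKO. The 250 bases before a transcription start come from RefSeq's promoter table on GRCm38.p6, which matched 24 of the 33 carriers, and each is read 5′ to 3′ on the minus strand that the gene lies on. For Slc25a34 the window is chr4:141623835-141624084 and for Slc25a42 chr8:70212282-70212531. RefSeq gives 3 starts for Slc25a22, and the window shown is that of the start 18 bases from the 5′ end of the GENCODE gene, chr7:141437875-141438124. Capitals mark every match, on either strand, to any of 13 motifs.
Slc25a34: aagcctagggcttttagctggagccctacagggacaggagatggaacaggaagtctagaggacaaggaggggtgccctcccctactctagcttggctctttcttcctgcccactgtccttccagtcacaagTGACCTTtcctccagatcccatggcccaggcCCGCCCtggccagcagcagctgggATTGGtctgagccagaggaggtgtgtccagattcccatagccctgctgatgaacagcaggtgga
Slc25a42: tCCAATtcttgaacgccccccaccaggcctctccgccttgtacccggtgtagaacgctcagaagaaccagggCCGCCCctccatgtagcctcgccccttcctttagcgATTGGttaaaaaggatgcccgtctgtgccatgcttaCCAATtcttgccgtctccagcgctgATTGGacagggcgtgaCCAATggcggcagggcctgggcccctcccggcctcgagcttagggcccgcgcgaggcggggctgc
Slc25a22: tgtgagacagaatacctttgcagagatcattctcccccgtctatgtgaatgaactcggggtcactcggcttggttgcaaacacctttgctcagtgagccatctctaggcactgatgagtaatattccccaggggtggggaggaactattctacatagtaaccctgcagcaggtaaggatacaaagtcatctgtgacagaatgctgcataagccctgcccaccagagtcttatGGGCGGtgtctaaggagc
The 13 motifs were those of nuclear receptors (AGGTCANAGGTCA, AGGTCA, TCAAGGTCA and AAGGTCA, of which the shorter lie inside the longer), of NRF1 (GCGCATGCGC and GCGCNTGCGC), the E-box CACGTG, the cAMP response element TGACGTCA, the amino acid response motifs TTGCATCA and TGATGNAA, the CCAAT box, the TATA box TATAAA and the GC box GGGCGG, all chosen with the values known.

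Of the 3 genes, Slc25a34 alone held the nuclear receptor half-site AAGGTCA, read on the opposite strand 119 to 113 bases before its start. The motif is in 4.08% of the 32851 windows of the table and in 1 of the 24 carriers with a window. Slc25a34 held 1 CCAAT box and Slc25a42 held 5, all within the 250 bases. In Slc25a22 the CCAAT box was found only at another start, 32 to 28 bases before it, and not in the window printed above. CCAAT is in 33.8% of all windows and in 13 of the 24 carriers, and the GC box, which all 3 genes held, in 32.7% of all windows and in 19 of the 24 carriers. For each motif a carrier was counted where any of its windows matched, and a gene can have several windows. The counts of carriers therefore cannot be set directly against the shares of windows. AGGTCA matched at the same place of Slc25a34 as AAGGTCA, and the other 9 motifs had no match in any window of the 3 genes. Binding was not measured.

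Of the ADP/ATP and phosphate carriers, Slc25a4 was lower on HFD in both genotypes, while Slc25a5 and Slc25a3 showed no difference past the test. Its libraries read 2139, 2199, 2235, 2046 and 2171 FPKM in chow-fed WT and 1765, 1646, 1775, 1865 and 1970.0 in HFD-fed WT. In iKO they read 1968, 1942, 1974, 2269 and 1874 on chow and 1821, 1596, 1691, 1642 and 1842 on HFD. In both genotypes every HFD library lay below every chow library. The mean fell from 2158 ± 71.8 to 1804 ± 121 FPKM (SD, n = 5) in WT (log2 fold change -0.26, SE 0.0539, adjusted p = 0.00508 by limma) and from 2005 ± 153 to 1719 ± 109 in iKO (log2 fold change -0.22, SE 0.0539, adjusted p = 0.0114). Between genotypes the value was -0.11 on chow (adjusted p = 0.384) and -0.07 on HFD (adjusted p = 0.527).

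The fall of Slc25a4 on HFD depended on the scaling of the libraries. With median-of-ratios factors it was -0.15 in WT (adjusted p = 0.287) and -0.13 in iKO (0.343), and with upper-quartile factors -0.14 (0.386) and -0.13 (0.393). These scalings bring the median of all genes from -0.08 to -0.0003 in WT and from -0.07 to -0.0009 in iKO with the first of them. The share of summed FPKM from the 13 mitochondrially encoded mRNAs also differed with diet, at 32.1% ± 0.347 (SD, n = 5) in chow-fed WT, 31.1% ± 1.80 in chow-fed iKO, 34.3% ± 0.787 in HFD-fed WT and 34.2% ± 0.560 in HFD-fed iKO. Of the 8 cardiomyocyte markers, Myh6, Tnnt2, Tnni3, Myl2 and Pln were called lower on HFD in WT and Tnnt2, Tnni3, Myl2, Pln and Mb in iKO, beside 7.27% and 8.36% of all genes. The median log2 fold change of the 8 was -0.17 in WT and -0.21 in iKO, and Myl2 was furthest, at -0.30 and -0.38. Ryr2 went the other way, with means of 88.9 FPKM on chow and 93.9 on HFD in WT, and 88.8 and 98.2 in iKO. These marker calls were not recomputed under the other scalings. The sum of the 8 markers ranged from 37996 to 39196 FPKM in chow-fed WT, from 30801 to 38197 in HFD-fed WT, from 37678 to 42273 in chow-fed iKO and from 32287 to 34443 in HFD-fed iKO. The part of either in the fall of Slc25a4 was not tested.

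Slc25a3 read 1059, 1045, 977, 993 and 1069.7 FPKM in chow-fed WT and 956, 971, 1053, 1174 and 1018 in chow-fed iKO. On HFD it read 995, 994, 1012, 994 and 1035 in WT and 1090.2, 957, 1006, 1000.1 and 1002 in iKO. The groups overlapped in all 4 comparisons, and the log2 fold changes lay between -0.03 and 0.01 with an SE of 0.0479.

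Slc25a5 read 185, 161, 174, 158 and 183 FPKM in chow-fed WT and 195, 230.1, 186, 199 and 186 in chow-fed iKO. On HFD it read 175, 169, 175, 169 and 178 in WT and 215, 231, 195, 195 and 202 in iKO. In both diets all 5 iKO libraries lay above all 5 WT libraries, but neither difference passed the test over all genes by limma (chow groups: log2 fold change 0.21, SE 0.0594, adjusted p = 0.111, HFD groups: 0.25, SE 0.0594, adjusted p = 0.104). The HFD difference passed with limma's array quality weights (adjusted p = 0.0278), without RT1 and RT4 together (0.0416) and without RT4 and RT7 together (0.0369). These were 3 of its 21 alternatives, over which it lay between 0.15 and 0.27 with limma's adjusted p at most 0.296. The chow difference passed in 0 of 21 and lay between 0.13 and 0.23, with limma's adjusted p at most 0.502. Fibroblast markers were also higher in iKO by their medians: the 8 genes, all measured, summed to 335.1 to 406.4 FPKM (median 341.0) in chow-fed WT and 377 to 734.7 (434.1) in chow-fed iKO, and to 335.3 to 367.8 (346.2) in HFD-fed WT and 319.2 to 634.3 (543.1) in HFD-fed iKO. None of the 8 was called between genotypes. In chow-fed iKO the highest library was RT4 for both these markers and Slc25a5, whereas in HFD-fed iKO it was RT17 for the markers and RT13 for Slc25a5. The HFD-fed iKO libraries RT11 and RT20 had marker sums of 332.9 and 319.2 FPKM, below every WT library, and their Slc25a5 values of 214.6 and 201.6 FPKM lay above every WT library. Dcn alone gave 251.8 and 240.5 FPKM of these 2 sums. Single markers could differ from the sum. Tcf21 read 4.18 FPKM in RT20 and 2.84 in RT11, where HFD-fed WT read 2.73 to 4.17. On HFD the log2 fold change between genotypes was above 0 for 7 of the 8 markers, while the mean of Col3a1 was lower in iKO (14.36 FPKM) than in WT (16.01). The part of fibroblasts in the values of Slc25a5 was not tested.

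The ratio of Slc25a4 to Slc25a5 within a library does not depend on the scaling between libraries. It read 11.6, 13.6, 12.8, 12.9 and 11.9 in chow-fed WT, 10.1, 8.44, 10.6, 11.4 and 10.1 in chow-fed iKO, 10.1, 9.73, 10.1, 11.02 and 11.1 in HFD-fed WT and 8.49, 6.91, 8.7, 8.44 and 9.14 in HFD-fed iKO. Its geometric mean was 12.5, 10.1, 10.4 and 8.3 in the same order, so the muscle form exceeded the other form least in HFD-fed iKO. By exact two-sided permutation tests of 5 against 5 libraries, the ratio was lower in chow-fed iKO (log2 difference -0.32, p = 0.00794), in HFD-fed iKO (-0.32, p = 0.00794) and on HFD in WT (-0.27, p = 0.00794), the smallest p this design allows, with no overlap of libraries. Over the 20 tests of 5 ratios the adjusted p was 0.0529 for each of them, so that none passed 0.05, which would have needed 4 tests at this smallest p where there were 3. For HFD against chow in iKO the log2 difference was -0.28 (exact permutation p = 0.0317, adjusted p = 0.127).

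**Figure D4:**
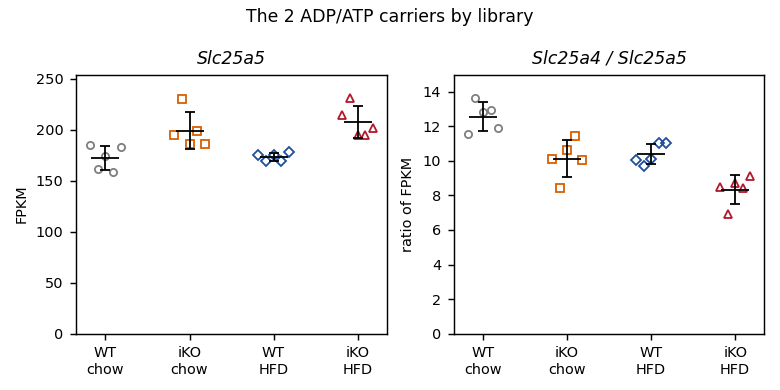
FPKM of Slc25a5 and the ratio of Slc25a4 to Slc25a5 in each library, with the mean and SD of each group of 5. The ratio lies between 11.56 and 13.63 in chow-fed WT and between 6.906 and 9.137 in HFD-fed iKO.

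The other carriers called between diets were lower on HFD. Of the 8 measured carriers of amino acids and organic acids, 3 were called lower on HFD in WT (Slc25a38, Slc25a10 and Slc25a29), and in iKO 1 was called lower (Slc25a29) and 1 higher (Slc25a22). Of the 8 of nucleotides and cofactors, Slc25a16 was called lower in WT and Slc25a42 higher in iKO. The carriers called lower are to be read against the 7.27% and 8.36% of all genes called lower above, and those called higher in iKO against 1.65%.

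Slc25a29, the carrier of arginine, lysine and other basic amino acids (chromosome 12, 108825873 to 108835883), was lower on HFD in both genotypes. It read 4.88, 4.21, 4.11, 4.64 and 4.69 FPKM in chow-fed WT and 3.12, 2.88, 3.94, 3.62 and 3.25 in HFD-fed WT. In iKO it read 4.05, 4.52, 5.02, 4.63 and 4.12 on chow and 2.79, 3.8, 3.5, 2.7 and 3.65 on HFD. The diets did not overlap in either genotype. The log2 fold change was -0.34 in WT (SE 0.0822, adjusted p = 0.0138 by limma) and -0.36 in iKO (adjusted p = 0.00787). With median-of-ratios factors the WT value was -0.26 (adjusted p = 0.0967). With upper-quartile factors the values were -0.25 (0.123) in WT and -0.28 (0.0549) in iKO. Slc25a47 starts head to head with it (chromosome 12, 108836046 to 108856815) and had -0.25 in WT (adjusted p = 0.107) and -0.07 in iKO (adjusted p = 0.685).

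Slc25a35, a carrier of no established substrate and a close relative of Slc25a34 (chromosome 11, 68968131 to 68974365), read 2.44, 2.77, 2.14, 2.13 and 2.58 FPKM in chow-fed WT and 1.39, 2.22, 2.04, 1.73 and 2.11 in HFD-fed WT. In iKO it read 2.43, 2.22, 2.81, 2.55 and 2.1 on chow and 1.64, 1.47, 1.4, 1.72 and 1.6 on HFD, without overlap. It was called lower on HFD in iKO (log2 fold change -0.41, SE 0.0819, adjusted p = 0.00261 by limma), and this call was kept under all 21 alternatives run. In WT the groups overlapped and the value was -0.24 (adjusted p = 0.0699). The interaction was -0.17 (SE 0.116, adjusted p = 0.999), so the genotypes were not shown to differ. Slc25a34 and Slc25a35 thus had opposite signs on HFD in iKO.

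Slc25a38, the importer of glycine for heme synthesis (chromosome 9, 120110374 to 120124504), read 10.9, 9.7, 10.2, 9.8 and 9.92 FPKM in chow-fed WT and 8.21, 8.27, 8.37, 8.05 and 8.29 in HFD-fed WT, without overlap. In iKO it read 9.09, 11.3, 9.87, 10.5 and 9.47 on chow and 9.04, 9.27, 9.45, 9.01 and 8.95 on HFD, which overlap. The log2 fold change was -0.27 in WT (SE 0.0513, adjusted p = 0.0035 by limma) and -0.12 in iKO (adjusted p = 0.146). It was the only carrier of the 5 whose WT call was kept with median-of-ratios factors, and with upper-quartile factors its value was -0.16 (adjusted p = 0.0678). On HFD all iKO libraries lay above all WT libraries (log2 fold change 0.13, adjusted p = 0.245).

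Slc25a16, a carrier linked to coenzyme A (chromosome 10, 62920633 to 62946498), read 11.8, 12.4, 11.3, 12.5 and 12.2 FPKM in chow-fed WT and 9.91, 9.78, 10.7, 11.01 and 9.47 in HFD-fed WT, without overlap. In iKO it read 12.2, 11.3, 11.9, 10.8 and 12.7 on chow and 10.6, 9.12, 11.7, 10.7 and 10.8 on HFD, with overlap. The WT difference was -0.22 (SE 0.0602, adjusted p = 0.027 by limma) and that in iKO -0.14 (adjusted p = 0.141). The WT call was lost without any of the chow libraries RT3 (adjusted p = 0.0648), RT8 (0.059) and RT10 (0.056) or the HFD libraries RT12 (0.0582), RT14 (0.0631) and RT19 (0.0554). With median-of-ratios factors the value was -0.12 (adjusted p = 0.397) and with upper-quartile factors -0.11 (0.457).

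Slc25a10, the dicarboxylate carrier that exchanges malate or succinate for phosphate (chromosome 11, 120491840 to 120499187), read 5.5, 5.67, 5.57, 5.23 and 5.29 FPKM in chow-fed WT and 3.98, 3.77, 4.25, 4.56 and 5.27 in HFD-fed WT. In iKO it read 5.06, 5.29, 5.63, 6.23 and 5.01 on chow and 4.6, 4.47, 5.21, 4.31 and 5.55 on HFD. The diets overlapped in both genotypes through 1 WT HFD library, RT19, and through 2 iKO HFD libraries. The value was -0.27 in WT (SE 0.0749, adjusted p = 0.0285 by limma) and -0.15 in iKO (adjusted p = 0.226). The WT call was lost without RT1 (adjusted p = 0.0582), RT3 (0.0677), RT5 (0.0532), RT12 (0.0702), RT14 (0.0812) or RT16 (0.0516). With median-of-ratios factors the value was -0.18 (0.282) and with upper-quartile factors -0.17 (0.342).

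**Figure D5:**
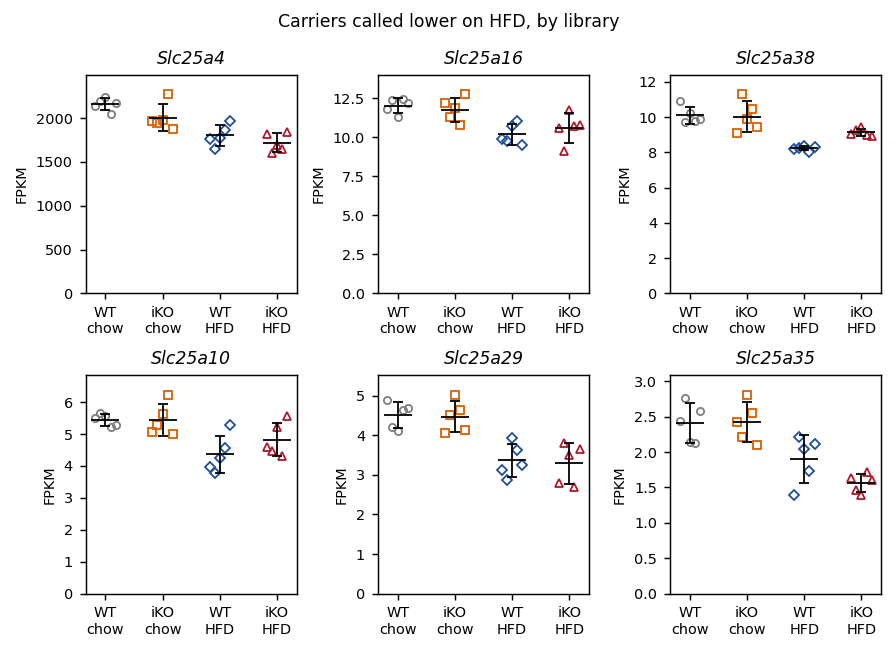
FPKM of the 6 carriers called lower on HFD in WT or in iKO, in each library, with the mean and SD of each group of 5. Slc25a4 and Slc25a29 lie lower on HFD in both genotypes without overlap, and Slc25a35 does so in iKO.

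The ATP-Mg and phosphate carriers, which adjust the adenine nucleotide pool of the matrix and respond to calcium, had no call among the 3 measured. Slc25a23 read 14.9, 14.2, 14.3, 13.4 and 14.2 FPKM in chow-fed WT and 17.3, 18.6, 16.3, 16.1 and 14.6 in chow-fed iKO. On HFD it read 15.4, 13.7, 13.7, 13.97 and 14.7 in WT and 13.2, 16.9, 18.5, 18.7 and 21.4 in iKO. Its means were higher in iKO in both diets, with overlap and without passing the test (log2 fold change 0.21, adjusted p = 0.278 on chow, and 0.28, adjusted p = 0.171 on HFD, by limma). Without iKO library RT11, the lowest of its group, the HFD difference was 0.38 and passed (adjusted p = 0.0157). Slc25a24 read 2.4, 2.24, 2.09, 2.47 and 2.41 FPKM in chow-fed WT, 2.38, 2.8, 2.03, 2.33 and 2.5 in chow-fed iKO, 2.19, 2.18, 2.14, 2.13 and 2.0 in HFD-fed WT and 2.46, 2.31, 2.13, 2.4 and 1.94 in HFD-fed iKO, with overlap in every comparison. Slc25a25 had its largest value between diets in WT (0.28, adjusted p = 0.125), called with array quality weights (0.0474). The ratio of Slc25a23 to Slc25a24 lay between 5.374 and 11.02, both in HFD-fed iKO, and none of its 4 comparisons had an exact permutation p under 0.05.

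The pyrimidine nucleotide carriers Slc25a33 and Slc25a36 had no call either. Slc25a36 read 9.25, 8.87, 10.3, 10.36 and 10.1 FPKM in chow-fed WT and 10.37, 12.2, 12.8, 11.6 and 11.7 in chow-fed iKO. There iKO lay wholly above WT, but only by the last decimal given (log2 fold change 0.24, SE 0.0862, adjusted p = 0.225 by limma). On HFD it read 11.4, 11.5, 11.5, 8.37 and 8.86 in WT and 11.3, 13.3, 10.9, 14.1 and 11.8 in iKO, with overlap (log2 fold change 0.23, adjusted p = 0.243). Slc25a33 read 11.3, 11.98, 12.3, 12.99 and 9.53 in chow-fed WT, 10.9, 10.4, 10.9, 11.4 and 10.5 in chow-fed iKO, 12.3, 11.2, 9.47, 12.4 and 10.96 in HFD-fed WT and 12.1, 11.5, 11.99, 9.81 and 9.94 in HFD-fed iKO, with overlap in every comparison. The ratio of Slc25a33 to Slc25a36 had a geometric mean of 1.19 in chow-fed WT and 0.926 in chow-fed iKO (exact permutation p = 0.0238, adjusted p = 0.119), and 1.1 and 0.903 on HFD (p = 0.190 by the same exact test). Of the other carriers of nucleotides and cofactors, Slc25a26, Slc25a32 and Slc25a51 had no call in any comparison.

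The carriers of iron and glutathione had no call among the 4 measured. Slc25a39 read 47.98, 52.97, 53.3, 48.2 and 50.9 FPKM in chow-fed WT, 53.2, 57.5, 47.8, 52.1 and 42.97 in chow-fed iKO, 52.2, 47.1, 52.3, 57.1 and 55.9 in HFD-fed WT and 52.6, 58.3, 54.9, 52.2 and 59.9 in HFD-fed iKO. Slc25a40 read 4.31, 3.78, 3.03, 3.55 and 3.72, 4.19, 3.21, 3.27, 3.72 and 3.44, 3.32, 3.7, 3.84, 3.38 and 3.13 and 3.66, 3.3, 2.93, 3.4 and 3.02 in the same order of groups. The groups of both carriers overlapped throughout, and their ratio, with geometric means of 13.8, 14.2, 15.2 and 17.1 in that order, had no exact permutation p under 0.05.

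Mitoferrin-1, Slc25a37, read 2.99, 2.81, 2.67, 2.91 and 2.84 FPKM in chow-fed WT, 3.23, 3.23, 2.92, 3.0 and 2.91 in chow-fed iKO, 2.97, 3.03, 2.91, 3.03 and 2.58 in HFD-fed WT and 2.56, 2.53, 2.85, 3.16 and 2.33 in HFD-fed iKO. Mitoferrin-2, Slc25a28, read 8.17, 10.1, 8.57, 8.66 and 8.88, 9.93, 9.13, 6.92, 10.5 and 7.97, 7.57, 7.44, 7.11, 7.12 and 8.8 and 7.82, 6.87, 6.99, 7.22 and 8.23 in the same order. Slc25a28 was the higher of the 2 in every library, with a ratio of Slc25a37 to Slc25a28 between 0.278 and 0.438. Its values for HFD against chow were -0.20 in WT (adjusted p = 0.145) and -0.22 in iKO (adjusted p = 0.105). The first was called with array quality weights (adjusted p = 0.0275) and the second without RT6 (0.0197).

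Among the carriers related to uncoupling proteins, Slc25a30 is named for its values, outside the rule for naming. It read 2.77, 2.65, 2.87, 2.83 and 2.23 FPKM in HFD-fed WT and 3.32, 4.03, 3.31, 3.77 and 3.47 in HFD-fed iKO, without overlap, and 3.16, 2.68, 2.83, 2.99 and 2.79 and 3.3, 3.45, 2.57, 2.54 and 2.97 on chow, with overlap. The genotype difference on HFD was 0.32 (SE 0.0738, adjusted p = 0.0971 by limma), called only with array quality weights (0.0427) among its 21 alternatives. HFD against chow in iKO gave 0.21 (adjusted p = 0.0719), which was called with both other scalings (0.0138 and 0.0123), without RT4 (0.0415) and without RT1 and RT4 (0.0437). Slc25a14 and Slc25a27 of the same group, Slc25a46 of the outer membrane, and Slc25a15, Slc25a44, Slc25a45, Slc25a47 and Slc25a53 had no call in any comparison.

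Other mitochondrial carriers and channels, 20 tested of 21 listed, gave 1 call lower and 0 higher between genotypes on chow (Slc25a20, the carnitine-acylcarnitine carrier, 101.4 against 74.76 FPKM). For these genes limma called 0 on HFD, where 3 had an unadjusted p under 0.05, as had 1947 of all 12775 genes. On HFD, Slc25a20, Ucp2 and Ucp3, the uncoupling proteins 2 and 3, were called higher in both genotypes. In WT 3 of the list were called lower on HFD (Slc25a13, Mpc1 and Vdac2) and in iKO 4 (also Mtch2). The 3 higher and 3 lower of 20 in WT stand beside 0.767% and 7.27% of all genes, and the 3 and 4 in iKO beside 1.65% and 8.36%. Slc25a20 rose by 0.38 on the log2 scale in WT and by 0.66 in iKO, and like the 3 carriers above its group mean was lowest in chow-fed iKO. It was not the furthest of the list. The lowest log2 fold change for iKO against WT on chow was -0.91, in a gene not called. The highest for HFD against chow were 1.04 in WT and 1.93 in iKO. Of the 15 tested of 16 listed proteins that import carriers into the inner membrane, limma called 0 between genotypes in either diet. In both diets 0 had an unadjusted limma p under 0.05, beside 1723 of all 12775 genes on chow and 1947 on HFD. On HFD 2 were called lower in WT (Timm10b and Timm8b) and 4 in iKO (also Tomm22 and Tomm6), and 0 higher, beside the same shares of all genes. These diet counts come from the scaling in which the median of all genes was -0.08 in WT and -0.07 in iKO, and they were not recomputed under the other scalings.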

How the data were processed

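RNA of 20 left ventricles was measured, 5 per group of genotype and diet. The values the authors deposited are FPKM of each gene, 1 table for each library, with 2 decimals. The tools listed in the submitters' processing notes are RSEM, Bowtie2 and DESeq2 (versions not given in the sources used here), and the build is mm9. Per the labels' protocols, poly(A) libraries were read as 100 nt single-end reads at about 50 M per sample. The tables hold no coordinates, and their Ensembl IDs belong to a later annotation than mm9. For 26 of the 33 carriers the ID has the same version in GENCODE M21, and positions are taken from it by ID, on GRCm38. FPKM give no counts, so the depth behind each value is unknown, and expected counts can be shared between close relatives such as Slc25a4 and Slc25a5.

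The scale log2(FPKM + 1) understates changes of low genes. The 12775 genes that reached 0.5 FPKM in 5 or more libraries were fitted with limma 3.58.1 in R 4.3.3, with an intensity trend and robust moderation, over all 20 libraries and 4 group means. Adjusted p are Benjamini-Hochberg over these genes, with calls at 0.05. Ratios of 5 carrier pairs were compared by exact two-sided permutation in Python 3.11.15, adjusted over 20 tests. Tested on simulated data for iKO against WT on chow with 12775 genes, the fit recovered 34% of changes of 0.25 on the log2 scale and 90% of changes of 0.5, with 50 genes each.

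Values were named in every library for carriers called in any comparison, for the 5 of highest mean and for those in the ratios. The members, the lists and this rule were chosen with earlier results of these data known. The values of 1 member are not reported here, and counts over all 33 include it. The alternatives were 2 other scalings, pseudocounts of 0.1 and 0.5, no minimum or 1 FPKM, limma without trend and robust moderation or with array weights, the 2 groups alone, and leaving out libraries. Each library is a separate mouse with its own number, and the sample labels used here name no litter or pairing. The WT mice were littermates of the iKO mice, so any effect of litter could not be modelled.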

Additional observations from a re-analysis of the deposited data

Results flagged for a closer look

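Within each group of 5 libraries, the highest and the lowest value of every carrier were set against the rest by the gap to the nearest library over the whole range. Of 132 groups (33 carriers in 4 groups), 6 held a library whose gap was above 0.71 of the range, and chance gives about 1 in 20. In iKO on chow, Slc25a4 stood at 2269.12 FPKM in RT7, against 1973.52 in the next library. In the same group Slc25a5 stood at 230.13 FPKM in RT4 (next 198.7) and Slc25a14 at 1.89 in RT4 (next 1.11). RT4 also had the highest sum of fibroblast markers of its group, 734.7 FPKM. In WT on HFD, library RT19 was high for mitoferrin-2, Slc25a28, at 8.8 FPKM (next 7.57), and low for mitoferrin-1, Slc25a37, at 2.58 (next 2.91). In iKO on HFD, Slc25a51 stood at 18.29 FPKM in RT11 (next 17.39).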

How the results depend on the processing

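No carrier changed sign where it was called. The count of carriers called between genotypes on chow, 2, was 3 with median-of-ratios scaling, upper-quartile scaling and a minimum of 1 FPKM, where Slc25a42 was added, and 1 with no minimum, 1 with array quality weights, 1 without RT1 and RT4 together, 1 without RT4 and RT7 together, and 1 to 2 when single libraries were left out. Slc25a34 was called in all 21 alternatives, and Slc25a22 was the call lost where the count was 1. The count on HFD, 0, was 2 with array quality weights, 1 without RT1 and RT4, 1 without RT4 and RT7, and 0 to 1 when single libraries were left out (1 without RT11). The count for the diet in WT, 5, was 1 with median-of-ratios scaling, 0 with upper-quartile scaling, 3 with no minimum, 8 with array quality weights (1 higher and 7 lower), and 3 to 5 when single libraries were left out (3 without RT3, RT12 or RT14). The 6 calls for the diet in iKO, 3 higher and 3 lower, were 4 and 2 with median-of-ratios scaling, 4 and 1 with upper-quartile scaling, 6 to 7 in all when single libraries were left out, and 3 and 1 without RT4 and RT7, where Slc25a4 (adjusted p = 0.0798) and Slc25a29 (0.0587) were lost. Slc25a34, Slc25a22, Slc25a42 and Slc25a35 kept their calls for the diet in iKO under all 21 alternatives. The interaction gave 0 calls under every alternative run. For the ratios, the exact test is too coarse over 20 tests for their lack of calls to say anything of stability. Except where a setting changes the libraries or genes tested, the cause of these changes was not tested. No paired analysis was run, because the sample labels used here name no litter or pairing of the mice. The groups of 5 mice and the unknown depth limit what can be called.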
